A study of Mus musculus with 8 samples.

Results

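A set of 10 stromal factors that support blood cell formation was followed across all libraries of the study. These were the ligands Cxcl12, Kitl, Il7, Angpt1 and Angptl2, the adhesion molecule Vcam1, the receptor Lepr, and the transcription factors Foxc1, Ebf1 and Ebf3. They were chosen by name from the deposited count table, which holds 25239 gene symbols, and all 10 were found and were abundant enough to be tested. The RNA came from primary calvarial cells, taken from the bony skull cap and called osteoblasts in the labels. There were 4 libraries labelled as a knockout of Sphk2 (genotype OSX-SphK2) and 4 from littermate controls labelled WT, each numbered 1 to 4. Sphk2 encodes a kinase that makes the lipid mediator sphingosine 1-phosphate. The protein Osx, from the gene Sp7, drives osteoblast formation and is also made by some marrow stromal cells in mice, so a deletion driven from it is not limited to mature osteoblasts. The label names Osx beside Sphk2 and does not say how the deletion was made. Age, sex, strain and the number of animals behind a library are not given in the sources used here. The title of the study concerns the control of neutrophil development by osteoblasts.

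Blood stem cells and early lymphoid cells live beside mesenchymal stromal cells that feed and anchor them. CXCL12 holds cells that carry its receptor CXCR4 in the marrow, KITL (stem cell factor) keeps stem and progenitor cells alive through the receptor KIT, and IL7 drives early B-cell growth. Angiopoietin 1 acts on the receptor TIE2, VCAM1 binds the integrin that holds ITGA4, and ANGPTL2 has been linked to survival of cultured stem cells. In marrow, the leptin receptor LEPR marks the perivascular stromal cells that make most CXCL12 and KITL, and FOXC1, EBF1 and EBF3 are transcription factors that maintain those cells in mice.

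Promoter sequences are shown for the 4 members whose levels ran most closely together over the 8 libraries, as described below, and for Cxcl12, the best known factor of the group. Each is the sequence before the RefSeq start site on GRCm38.p6, read 5′ to 3′ on the gene's own strand, and capitals mark matches to the GC box GGGCGG on either strand. That of Foxc1 ends at its annotated exon, after 237 bases.
Foxc1, chr13:31806396-31806632, plus strand: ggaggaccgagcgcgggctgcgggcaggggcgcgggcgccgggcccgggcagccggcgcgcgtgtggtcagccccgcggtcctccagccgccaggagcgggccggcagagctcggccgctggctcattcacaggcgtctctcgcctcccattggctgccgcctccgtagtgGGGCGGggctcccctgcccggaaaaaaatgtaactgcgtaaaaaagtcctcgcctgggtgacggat
Ebf3, chr7:137314446-137314695, minus strand: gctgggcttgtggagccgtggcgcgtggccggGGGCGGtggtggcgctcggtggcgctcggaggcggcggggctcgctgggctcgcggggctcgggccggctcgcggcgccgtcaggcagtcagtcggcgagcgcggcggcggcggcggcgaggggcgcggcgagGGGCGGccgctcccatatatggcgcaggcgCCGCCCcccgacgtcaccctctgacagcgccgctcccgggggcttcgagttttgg
Ebf1, chr11:44619978-44620227, plus strand: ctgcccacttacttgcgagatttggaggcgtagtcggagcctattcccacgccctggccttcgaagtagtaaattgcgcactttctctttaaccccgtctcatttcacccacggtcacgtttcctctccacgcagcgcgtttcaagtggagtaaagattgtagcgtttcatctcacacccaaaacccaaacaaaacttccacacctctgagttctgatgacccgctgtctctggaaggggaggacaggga
Angptl2, chr2:33215711-33215960, plus strand: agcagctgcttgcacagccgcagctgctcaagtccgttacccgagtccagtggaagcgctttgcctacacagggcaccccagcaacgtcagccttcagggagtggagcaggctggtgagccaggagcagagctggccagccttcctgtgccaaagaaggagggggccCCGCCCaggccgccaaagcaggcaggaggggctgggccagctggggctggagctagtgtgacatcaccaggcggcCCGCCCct
Cxcl12, chr6:117168285-117168534, plus strand: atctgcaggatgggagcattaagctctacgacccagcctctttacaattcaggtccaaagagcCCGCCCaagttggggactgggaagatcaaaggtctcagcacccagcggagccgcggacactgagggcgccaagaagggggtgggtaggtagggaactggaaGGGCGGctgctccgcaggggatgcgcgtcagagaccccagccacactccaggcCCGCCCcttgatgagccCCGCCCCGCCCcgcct
RefSeq windows of 250 bases before a start were found for 7 of the 10 members, 9 windows in all. Il7, Angpt1 and Vcam1 are named without one. The GC box stood in 6 of the 9 windows, against 32.7% of 32851 windows of the whole table, and matches may overlap, as in Cxcl12, which had 5. The window of Ebf1 shown here, before a start inside the annotated gene, had none, with 52.0% G and C, whereas that of Ebf3 had 3 at 80.0%. The palindrome of EBF proteins, searched as TCCC and GGGA with 2 bases of any kind between them, stood in 0 of 9 member windows and in 0.779% of all. The forkhead core GTAAACA was searched on both strands and stood in 0 of 9, against 3.17% of all. A TATAAA stood in 1 member window, that of Kitl, against 12.4% of all. An NF-kappaB form, searched on both strands as GGG and TTCC with 3 bases of any kind between them, stood in 1 window each of Kitl and Lepr, against 4.65% of all. These are counts of letters in short windows.

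All 8 libraries held 14347495 to 19065421 counts. Sphk2 stood at 69.7, 72.3, 72.1 and 131 CPM in knockout-labelled libraries 1 to 4, against 75.8, 64.2, 82.5 and 134 CPM in controls 1 to 4, so the count of the targeted gene does not check the labels. CPM here is the read count scaled to a common library size, with TMM factors. The osteoblast genes Sp7 and Col1a1 were present, Sp7 at 10.6 to 37.2 CPM in knockout-labelled libraries and 3.29 to 46.2 CPM in controls. The libraries numbered 4 stood apart in both groups, on a first principal component that carried 73.7% of the variance. Their osteoclast markers summed to 6722 CPM in knockout-labelled 4 and 10161 CPM in control 4, against 171 to 277 CPM in the other libraries. Macrophage markers, led by Lyz2 and Csf1r, summed to 29414 to 48842 CPM in knockout-labelled libraries and 29450 to 39021 CPM in controls, above the 2686 to 14660 CPM and 4572 to 16354 CPM of the osteoblast and matrix list in the same groups. These sums are not scaled for gene length or list size. Lyz2 alone averaged 22132 CPM in knockout-labelled libraries and 21794 CPM in controls. The B-lineage markers summed to 10.2 CPM in knockout-labelled 4 and 9.999 CPM in control 4, against 0.116 to 1.41 CPM in the other libraries, with Pax5, Igll1 and Rag1 at 0 counts in all 8. The neutrophil markers summed to at most 3.64 CPM.

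The order of the factors by level was clear at the top and blurred below. In this order, levels of different factors are compared only as CPM per kilobase of annotated exon (GENCODE M21). Angptl2 was highest, at 32.4 ± 11.2 CPM per kilobase in knockout-labelled libraries and 51.0 ± 30.3 in controls (SD, n = 4 each). Cxcl12 came next, at 8.23 ± 3.70 CPM per kilobase in knockout-labelled libraries and 8.70 ± 5.71 in controls. Foxc1 averaged 3.42 ± 2.07 and Ebf1 1.76 ± 1.01 CPM per kilobase in knockout-labelled libraries, against 4.17 ± 2.72 and 2.46 ± 1.61 in controls. Angptl2 exceeded Cxcl12, Cxcl12 exceeded Foxc1 and Foxc1 exceeded Ebf1 in 8 of 8 libraries each, although the ranges over libraries overlapped. From Ebf1 down, neighbours changed places. Ebf1 exceeded Vcam1 in 5 of 8 libraries, Vcam1 exceeded Angpt1 in 5, Lepr exceeded Ebf3 in 3 and Ebf3 exceeded Kitl in 4, so those neighbours do not differ beyond their spread. Il7 was lowest in its mean over all 8 libraries, at 0.621 ± 0.139 CPM per kilobase in knockout-labelled libraries and 0.480 ± 0.121 in controls. Among knockout-labelled libraries alone Ebf3 was lower, at 0.582 ± 0.342. In numbers 1 to 3, with both genotypes pooled, Lepr had the lowest mean, at 0.469 ± 0.262 against 0.503 ± 0.126 for Il7. In controls 1 to 3 alone Il7 was lower, at 0.430 against 0.480 for Lepr. The place of Lepr over all 8 libraries owes much to knockout-labelled 4, at 4.13 CPM per kilobase.

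**Figure D1:**
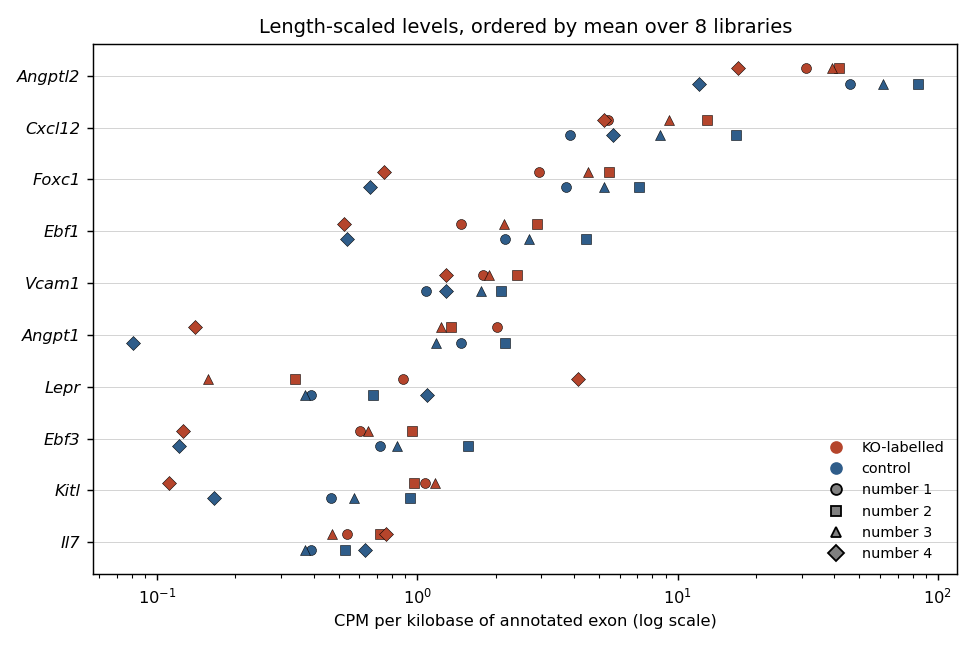
Level of each factor in CPM per kilobase of annotated exon, on a log axis, with 1 point per library, knockout-labelled libraries above controls, and symbols for the library number. Genes are ordered by their mean over 8 libraries. Angptl2 and Cxcl12 lead, and for 6 genes both number 4 points lie left of all others.

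Of the 10 factors, 6 were lower in both libraries numbered 4 than in any other library: Kitl, Angpt1, Angptl2, Foxc1, Ebf1 and Ebf3. Over all genes tested 33.8% met that description, and 34.2% met the opposite one, which 1 of the 10, Lepr, met. Angpt1 showed the steepest drop, with knockout-labelled 4 at 0.0910 times the mean of knockout-labelled 1 to 3 and control 4 at 0.0501 times that of controls 1 to 3. The counts in the libraries numbered 4 were low for several of these genes, at 10 and 6 for Angpt1, 9 and 14 for Kitl and 16 and 16 for Ebf3 in knockout-labelled 4 and control 4. An exact 95% Poisson interval for the 9 reads of Kitl ran from 4.12 to 17.1 and that for the 14 reads from 7.65 to 23.5, which covers counting error only. Cxcl12 was at 0.565 times in knockout-labelled 4 and 0.579 times in control 4, and both values lay within the range of the other libraries. Vcam1 was at 0.634 times in knockout-labelled 4 and 0.781 times in control 4. Il7 was at 1.32 times in knockout-labelled 4 and 1.47 times in control 4, so number 4 was the highest Il7 library within each group. The fibroblast and mesenchymal stroma list summed to 644 CPM in knockout-labelled 4 and 1197 CPM in control 4, against 726 to 2090 CPM in the other libraries, so the list as a whole was below that range in knockout-labelled 4 and inside it in control 4. Within that list the genes Pdgfrb and Prrx1, a growth factor receptor and a mesenchymal transcription factor chosen after their values were seen, were lower in both, with 31.8 and 25.7 CPM in knockout-labelled 4 and 49.9 and 28.5 CPM in control 4. Elsewhere Pdgfrb lay between 87.2 and 233 CPM and Prrx1 between 118 and 193 CPM. The osteoblast and matrix list summed to 2686 CPM in knockout-labelled 4 and 4572 CPM in control 4. In the other libraries it lay between 7132 and 16354 CPM. In the same order, the adipocyte list summed to 206 and 204 CPM, against 478 to 922 CPM. The pericyte and smooth muscle list gave 638 and 300 CPM, against 879 to 2784 CPM. The endothelial list went the other way, at 40.8 and 27.7 CPM, against 8.31 to 12.3 CPM. In bulk RNA, fewer cells of a type and less RNA per cell cannot be told apart. The part of the osteoclast and other marker shifts in the factor values was not tested.

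**Figure D2:**
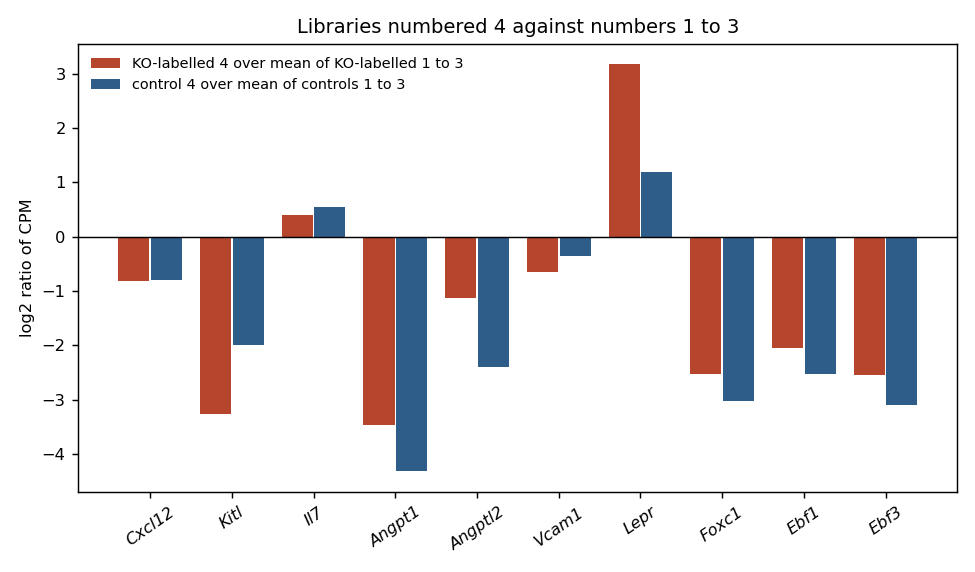
Log2 ratio of CPM of the library numbered 4 to the mean of numbers 1 to 3, for each factor, with knockout-labelled libraries in the left bar and controls in the right bar of each pair. Bars below 0 mark genes that were lower in number 4, and only Il7 and Lepr point upward.

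Between genotypes, 0 of the 10 factors rose and 0 fell when all 8 libraries were compared by genotype alone. The background was 0% higher and 0% lower of 12837 genes tested (edgeR quasi-likelihood test, Benjamini-Hochberg adjusted p under 0.05). At an unadjusted p under 0.05 stood 3.19% of genes higher and 1.72% lower, 631 in all, and 0 of the 10 factors. The groups of 4 did not overlap for 0 of the 10 factors, against 2.32% of genes higher and 1.27% lower. DESeq2 called 127 genes higher and 49 lower and none of the factors. The median log2 fold change was −0.064 over the 10 factors and −0.016 over all genes, and 6 of the 10 were negative, as were 6844 of all genes. The median SE was 0.69 over the factors and 0.25 over all genes. Same-numbered libraries of the groups deviated together, so the number was also fitted as a block. The block pairs each knockout-labelled library with the control of the same number, a pairing that rests on the values and on no label. With the block 1.31% of genes rose and 1.18% fell, and 0 of the 10 factors were among them. Numbers 1 to 3 alone, a choice made with the values known, gave 7.78% higher and 6.29% lower over 12919 genes, and 0 of the 10 factors passed. With the block as well, 12.3% were higher and 11.9% lower, and among the factors 0 rose and 3 fell: Angptl2, Ebf1 and Foxc1. In that same model 4 of 4 tested adipocyte markers rose, 2 of 6 fibroblast and stroma markers fell and 0 rose, and 4 of 12 macrophage markers rose and 3 fell. The adipocyte list held 7 genes, of which Adipoq, Plin1 and Cidec were too low to test. The 4 that rose, Lpl, Cebpa, Pparg and Fabp4, do not by themselves identify adipocytes. Of 7 osteoclast markers 1 rose and 2 fell, as did 1 and 2 of 6 tested pericyte and smooth muscle markers. Of 9 tested osteoblast and matrix markers 1 rose, Dmp1, and 0 fell. Of 4 tested progenitor and megakaryocyte markers 0 rose and 1 fell, Pf4. Among 4 tested endothelial markers 0 rose and 0 fell. The part of these marker differences in the values of the factors was not tested.

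**Figure D3:**
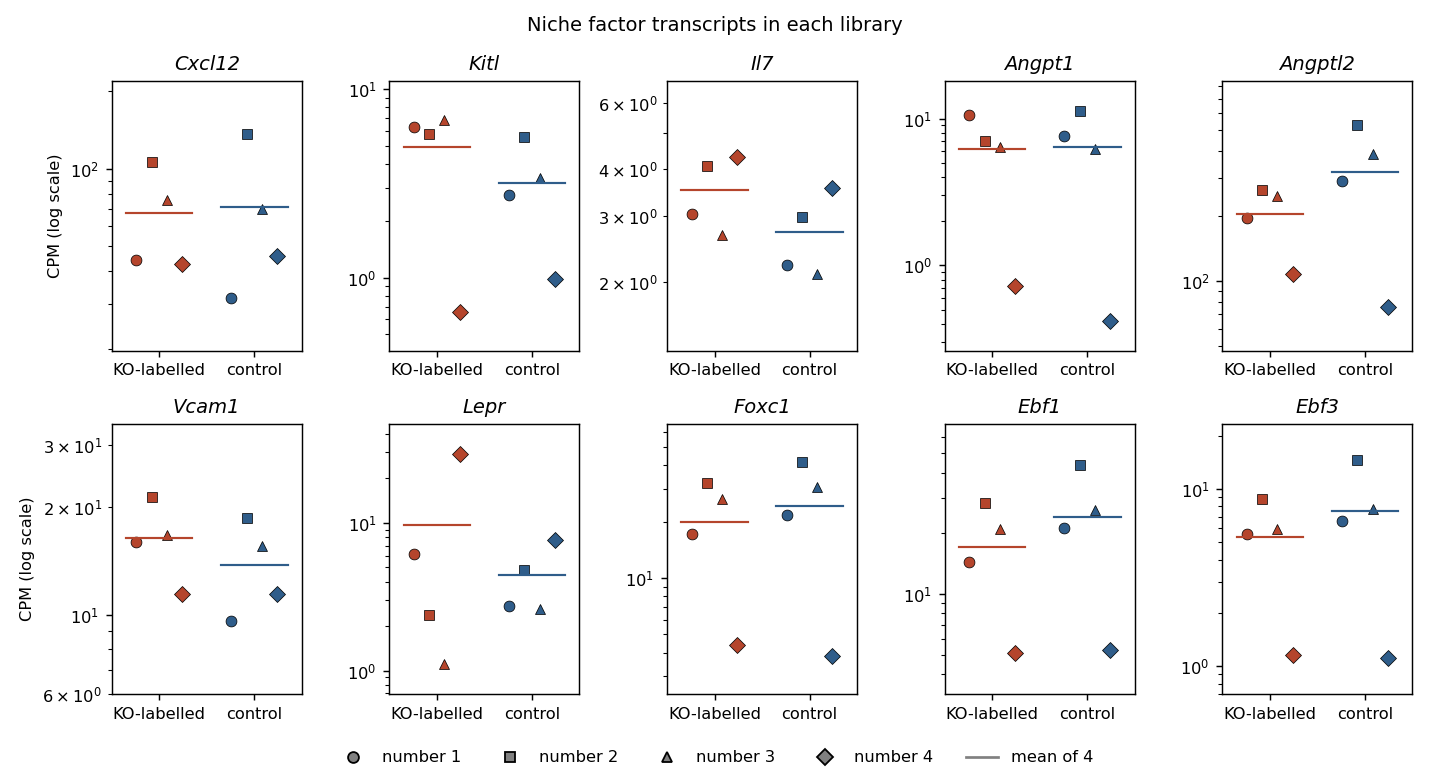
CPM of each factor in each library on a log axis, with knockout-labelled libraries at left and controls at right, a symbol for each library number and a line at the mean of 4. For 6 factors the diamonds of number 4 lie at the bottom of both groups, and for Lepr they lie at the top.

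Cxcl12 (chromosome 6, 117168535 to 117181367, plus strand of GRCm38) had similar averages in both genotypes and varied mainly with library number. It was at 44.2, 106, 75.9 and 42.6 CPM in knockout-labelled libraries 1 to 4, against 31.5, 137, 70.0 and 46.0 CPM in controls 1 to 4. Number 2 was highest in both groups, and the range of the knockout-labelled libraries lay inside that of the controls. The means were 67.3 ± 30.3 CPM in knockout-labelled libraries and 71.1 ± 46.7 CPM in controls (SD, n = 4 each), with an exact two-sided permutation p of 0.914, where the smallest possible is 0.0286. The log2 fold change was −0.081 (SE 0.49) by genotype alone, and 0.025 with the number as a block, with a 95% interval of −0.32 to 0.37. Its direction turned with the library left out, between −0.39 without knockout-labelled 2 and 0.46 without control 2.

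Kitl (chromosome 10, 100015630 to 100100416, plus strand) had 6.33, 5.76, 6.89 and 0.656 CPM in knockout-labelled libraries, against 2.75, 5.57, 3.38 and 0.979 CPM in controls. In numbers 1 to 3 the libraries labelled knockout lay above all controls, a description that 18.2% of genes share, while number 4 was lowest in both groups and went the other way. Pair by pair, the ratio of knockout-labelled to control was 2.30, 1.04, 2.04 and 0.670. The log2 fold change was 0.63 (SE 0.71) by genotype alone, and in numbers 1 to 3 with the block it reached 0.74 (SE 0.24, edgeR adjusted p = 0.0541). It passed without number 2 (1.12, edgeR adjusted p = 0.0115), and did not without number 1 (edgeR adjusted p = 0.0971) or number 3 (0.334). Each of these refits had a single residual degree of freedom.

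Il7 (chromosome 3, 7569994 to 7613760, minus strand) was low and was higher in the knockout-labelled library of 4 of 4 pairs, as 15.4% of all genes were. It had 3.04, 4.08, 2.67 and 4.30 CPM in knockout-labelled libraries, against 2.22, 2.98, 2.10 and 3.57 CPM in controls, from 36 to 75 reads per library. The groups overlapped, and the ratios of 1.37, 1.37, 1.27 and 1.21 were close to each other. With the block the log2 fold change was 0.38, with a 95% interval of −0.051 to 0.81 and an edgeR adjusted p of 0.290, so it did not pass.

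Angpt1 (chromosome 15, 42424723 to 42676977, minus strand) showed no common direction. It had 10.5, 7.01, 6.45 and 0.728 CPM in knockout-labelled libraries, against 7.67, 11.3, 6.17 and 0.420 CPM in controls. Number 4 was lowest in both groups, the groups overlapped, and the highest library was number 1 among the knockout-labelled and number 2 among the controls. With the block the log2 fold change was 0.018, with a 95% interval of −0.56 to 0.60.

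Angptl2 (chromosome 2, 33216069 to 33247717, plus strand) was the most abundant factor and was lower in knockout-labelled libraries of numbers 1 to 3. It was at 196, 263, 247 and 107 CPM in knockout-labelled libraries, against 289, 528, 388 and 75.8 CPM in controls. In numbers 1 to 3 each knockout-labelled library lay below each control, as for 16.5% of genes, and pair 4 went the other way. The ratios were 0.678, 0.498, 0.636 and 1.42. All 8 libraries gave a log2 fold change of −0.66 (SE 0.54), or −0.44 with the block (SE 0.25, edgeR adjusted p = 0.392). Numbers 1 to 3 gave −0.74 with the block (SE 0.087, edgeR adjusted p = 0.00104) and −0.77 without it (SE 0.24, edgeR adjusted p = 0.0995). With number 1, 2 or 3 left out the values were −0.82, −0.60 and −0.79, each past the threshold. Those refits reuse the same libraries on a single residual degree of freedom, so they are no separate support.

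Vcam1 (chromosome 3, 116109949 to 116129688, minus strand), the adhesion molecule that holds blood cells to stroma, had 15.9, 21.4, 16.8 and 11.4 CPM in knockout-labelled libraries, against 9.58, 18.7, 15.5 and 11.4 CPM in controls. The groups overlapped, and the knockout-labelled library was higher in 4 of 4 pairs, as 15.4% of all genes were. The ratios were 1.66, 1.15, 1.08 and 1.003, so pair 1 differed most and pair 4 was nearly level. With the block the log2 fold change was 0.26, with a 95% interval of −0.067 to 0.59 (edgeR adjusted p = 0.335), and in numbers 1 to 3 it was 0.34 (edgeR adjusted p = 0.0876).

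Lepr (chromosome 4, 101717404 to 101815352, plus strand) had 6.20, 2.39, 1.11 and 29.1 CPM in knockout-labelled libraries, against 2.75, 4.78, 2.62 and 7.69 CPM in controls. Number 4 was highest in both groups, and the 400 reads of knockout-labelled 4 were far above the 20 to 110 of all other libraries. The ratios were 2.25, 0.500, 0.424 and 3.79, so pairs 1 and 4 went one way and pairs 2 and 3 the other. The log2 fold change of 1.12 (SE 0.95) turned to −0.46 without knockout-labelled 4. In numbers 1 to 3 with the block it was −0.26 (SE 0.53). Leaving out number 1 there gave a call, at −1.09 (edgeR adjusted p = 0.00767), on a single residual degree of freedom. Lepr was highest in the 2 libraries in which Ebf1, Ebf3 and Foxc1 were lowest. In the same 2 libraries Pf4, a chemokine of megakaryocytes that some macrophages also make, stood at 506 CPM in knockout-labelled 4 and 369 CPM in control 4, against 90.1 to 156 CPM elsewhere. The whole list of progenitor and megakaryocyte markers, most of it Pf4, summed to 512 CPM in knockout-labelled 4 and 372 CPM in control 4, against 113 to 176 CPM elsewhere, with Itga2b, Gata2 and Cd34 detected and Gata1 at 0 counts in all 8 libraries. Which cells carried the Lepr reads was not tested.

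Foxc1, Ebf1 and Ebf3 had the most alike profiles of the 10. Of the 45 pairs among the 10 factors, these 3 pairs had the smallest root mean square difference between centred log2 profiles over the 8 libraries, at 0.19 for Foxc1 with Ebf3, 0.23 for Ebf1 with Ebf3 and 0.25 for Foxc1 with Ebf1. Ebf1 with Angptl2 came next at 0.31. The log2 ratio between genes of the first 3 pairs still spanned 0.62, 0.77 and 0.76 over the libraries. All the profiles share the drop in number 4, and no test was made of their likeness. The promoters of all 3 are among those printed above.

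Ebf1 (chromosome 11, 44617317 to 45008091, plus strand) was lower in the knockout-labelled library of 4 of 4 pairs, as 13.4% of all genes were. It had 14.3, 28.2, 21.1 and 5.10 CPM in knockout-labelled libraries, against 21.1, 43.5, 26.2 and 5.24 CPM in controls. The groups overlapped, number 2 was highest and number 4 lowest in both, and pair 4 was nearly level. The ratios were 0.679, 0.649, 0.804 and 0.972. By genotype alone the log2 fold change was −0.48 (SE 0.66). With the block it was −0.42, with a 95% interval of −0.69 to −0.14, and did not pass (edgeR adjusted p = 0.110). Numbers 1 to 3 with the block gave −0.50 (SE 0.091, edgeR adjusted p = 0.00300). Without number 1, 2 or 3 it was −0.47, −0.42 and −0.60, each past the threshold. Those refits reuse the same libraries on a single residual degree of freedom, so they are no separate support.

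Foxc1 (chromosome 13, 31806633 to 31812476, plus strand) had 17.1, 32.0, 26.5 and 4.37 CPM in knockout-labelled libraries, against 21.7, 41.4, 30.5 and 3.85 CPM in controls. Pairs 1 to 3 were lower, by a narrow span of ratios, and pair 4 was higher, at 0.789, 0.773, 0.867 and 1.14. The groups overlapped, and number 4 was lowest in both. With the block the log2 fold change was −0.22 (SE 0.11, edgeR adjusted p = 0.294). Numbers 1 to 3 with the block gave −0.30 (SE 0.080, edgeR adjusted p = 0.0199), a call lost without number 2 (edgeR adjusted p = 0.109) or number 3 (0.0758).

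Ebf3 (chromosome 7, 137193673 to 137314445, minus strand) had 5.58, 8.80, 5.95 and 1.17 CPM in knockout-labelled libraries, against 6.61, 14.5, 7.74 and 1.12 CPM in controls. Pairs 1 to 3 were again lower and pair 4 nearly level, with ratios of 0.844, 0.607, 0.768 and 1.04. The groups overlapped. Numbers 1 to 3 with the block gave a log2 fold change of −0.46 (SE 0.15) that just missed the threshold (edgeR adjusted p = 0.0502). It passed without number 1 (−0.56, edgeR adjusted p = 0.0125), on a single residual degree of freedom.

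**Figure D4:**
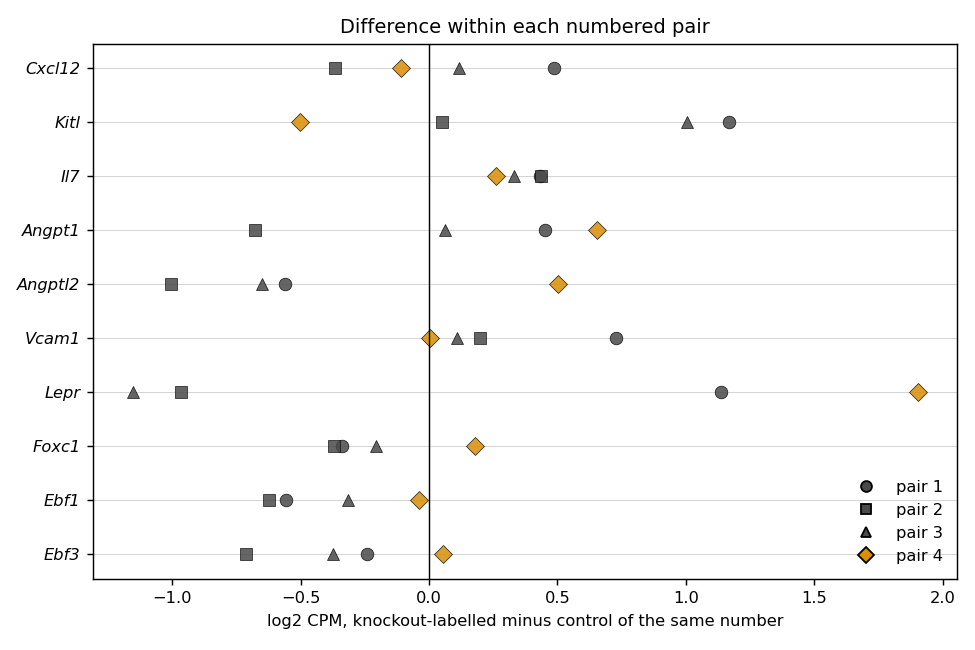
Difference in log2 CPM between the knockout-labelled library and the control of the same number, 1 symbol per pair, for each factor, with pair 4 in orange. Ebf1 lies at or left of 0 in 4 pairs, Il7 right of 0 in 4 pairs, and for Angptl2, Foxc1 and Ebf3 pair 4 alone lies right of 0.

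**Figure D5:**
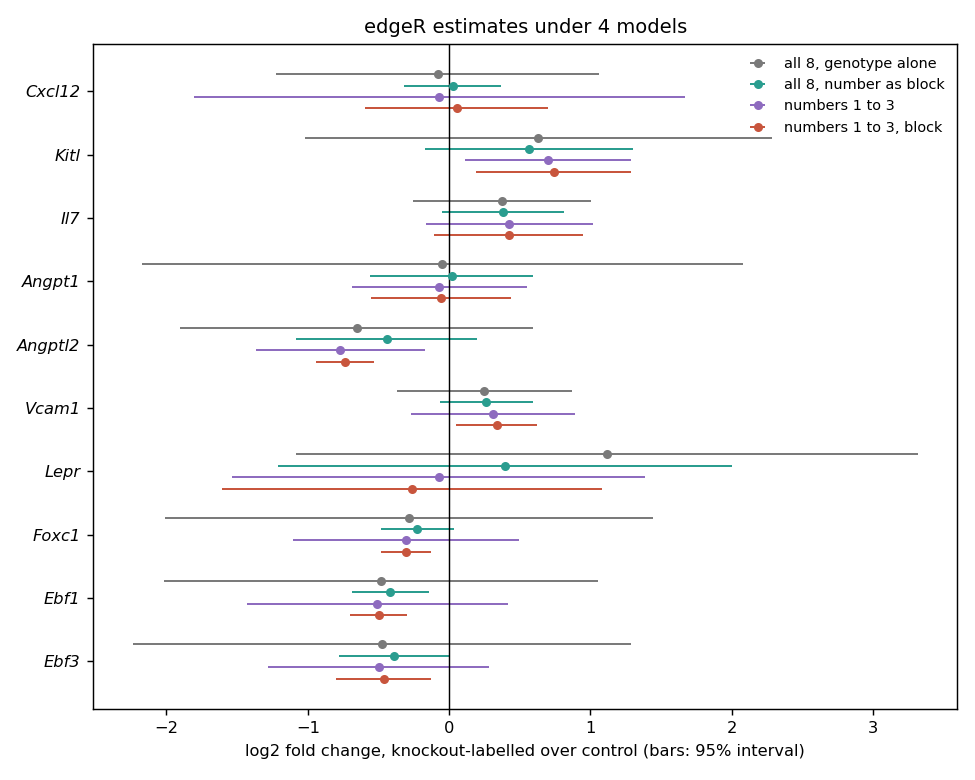
Log2 fold change of each factor, knockout-labelled over control, with its 95% interval, under 4 edgeR models. Intervals without the block span 0 for all 10 factors with 8 libraries, and in numbers 1 to 3 with the block those of Angptl2, Foxc1, Ebf1 and Ebf3 lie below 0, the first 3 passing after adjustment over all genes, while those of Kitl and Vcam1 lie above 0 and do not pass.

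Of 16 receptors and binding partners, 11 were abundant enough to test, 4 had positive and 7 negative log2 fold changes with a median of −0.039, and 0 passed by genotype alone. Tek, which encodes the angiopoietin receptor TIE2, had 0 counts in all 8 libraries. For any library taken alone, a count of 0 leaves an upper 95% bound of 3 expected counts. Kit, the receptor for KITL, had at most 8 counts. Cxcr4, the receptor for CXCL12, stood at 91.1, 78.7, 92.7 and 315 CPM in knockout-labelled libraries, against 86.8, 72.7, 76.9 and 352 CPM in controls, so number 4 was highest in both groups, and the groups overlapped. With the block 1 of the 11 rose and 0 fell, where the shares over all genes were 1.31% and 1.18%. It was Itga4, the integrin chain that binds VCAM1. It was at 441, 386, 412 and 120 CPM in knockout-labelled libraries, against 337, 267, 268 and 88.0 CPM in controls, with a log2 fold change of 0.50 (SE 0.064, edgeR adjusted p = 0.0361). It was higher in each of the 4 pairs, as 15.4% of genes were, and number 4 was lowest in both groups. Itgb1, the chain that pairs with it, was at −0.49 (SE 0.35), Il7r, the IL7 receptor chain, at 0.42 (SE 0.25), and Itgb7, another partner of Itga4, at −0.39 (SE 0.90). None of these 3 passed in the 8 libraries under either model. Within numbers 1 to 3, with the block, 1 of the list rose, Itga4, and 2 fell, Itgb1 and Pirb, an inhibitory receptor that binds ANGPTL2, in a model that called 12.3% of all genes higher and 11.9% lower.

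Of 32 other stromal niche factors and regulators, 26 were tested, 7 with positive and 19 with negative log2 fold changes, with a median of −0.19, and 0 past the threshold by genotype alone. With the block 1 rose and 3 fell, where 1.31% of all genes rose and 1.18% fell. The Notch ligand Jag1 fell, at 17.6, 17.4, 22.4 and 8.74 CPM in knockout-labelled libraries, against 35.5, 33.1, 35.6 and 16.3 CPM in controls, with a log2 fold change of −0.87 (SE 0.089, edgeR adjusted p = 0.0328). It was lower in each of the 4 pairs, as 13.4% of genes were, and number 4 was lowest in both groups. Pdgfrb, named after its value was seen, fell by 0.67 on the log2 scale (SE 0.071, edgeR adjusted p = 0.0328). The cytokine Il11 had 1.12, 0.598, 0.945 and 0.874 CPM in knockout-labelled libraries, against 4.97, 5.17, 7.45 and 1.33 CPM in controls, groups that did not overlap, as for 1.27% of genes, and it fell by 2.31 (SE 0.42, edgeR adjusted p = 0.0496). Angptl7, a relative of Angptl2, rose, at 2.85, 1.90, 1.89 and 9.83 CPM in knockout-labelled libraries, against 0.529, 0.337, 0.466 and 2.52 CPM in controls. Its log2 fold change was 2.18 (SE 0.24, edgeR adjusted p = 0.0340), from 34 to 135 reads in knockout-labelled libraries and 6 to 36 in controls. Angptl7 was higher in each of the 4 pairs, as 15.4% of genes were, whereas Angptl2 was lower in pairs 1 to 3 and higher in pair 4. Il34, a ligand of the CSF1 receptor, was at −0.80 (SE 0.27) and did not pass. All calls with the block were lost when number 1, 2 or 3 was dropped from both genotypes, where 0 genes passed over the whole table.

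The genes whose profiles over the 8 libraries lay nearest to each factor were sought among those averaging 3 or more in log2 CPM. Nearest to Foxc1 were Ly75, an endocytic receptor (root mean square difference 0.090), Ehd2, an ATPase of caveolae (0.10), and Ddah1 (0.13). Ehd2 (0.16) and Ly75 (0.16) were also nearest to Ebf3, followed by Vgll3 (0.16), a cofactor of TEAD transcription factors. Ebf1 was nearest to the netrin receptor Neo1 (0.14), Dzip1l (0.16) and the transcription factor Nfib (0.16). Angptl2 lay closest to the matrix genes Ccn1 (0.078) and Bgn (0.10) and the proteoglycan Gpc4 (0.12). Cxcl12 lay nearest to the heat shock gene Hspa1b (0.20), the Wnt agonist Rspo2 (0.23) and the muscle gene Myom1 (0.31), and Vcam1 to Rad18 (0.10), Tceal8 (0.17) and Myo19 (0.18). Il7 was nearest to Kdm6b (0.14), Msra (0.15) and Maoa (0.16), Kitl to Ston2 (0.28), Map1a (0.28) and Irs1 (0.29), and Angpt1 to Nbeal1 (0.29), Ptprd (0.29) and Pgm2l1 (0.32). Lepr had no close neighbour. Its nearest were Adgre4 (0.60), a receptor of myeloid cells, Smpdl3b (0.68) and Pf4 (0.70), and its own SD was 1.38 on the same scale. These distances are over libraries that share the split between number 4 and the rest, and they are descriptions.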

How the data were processed

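Polyadenylated RNA of 8 libraries was measured. The authors deposited whole-number read counts per gene symbol. STAR 2.7.11b, featureCounts 2 and the build mm10 (GRCm38) are named by the submitters' processing notes. The annotation counted, the use of strand and the treatment of reads with several alignments are not given in the sources used here. For that reason, reads of Il7, Angpt1, Vcam1 and Ebf3 cannot be told apart from those of antisense neighbours in GENCODE M21, and reads shared by the related genes Ebf1 and Ebf3 are uncertain.

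From the counts, filterByExpr kept 12837 genes and TMM scaled the libraries. edgeR 4.0.16 (R 4.3.3) fitted its robust quasi-likelihood test on genotype alone, with Benjamini-Hochberg adjustment over all genes tested and a threshold of 0.05. Log2 CPM used a prior count of 2. RLE scaling, no filter, DESeq2 1.42.0, limma-voom (limma 3.58.1), the replicate block, numbers 1 to 3 alone and each library left out were alternatives. The code was tested on simulated data. Deviations from the group means correlated over genes between libraries of like number, with r of 0.460 to 0.829, or 0.161 to 0.376 within numbers 1 to 3. Unlike numbers among 1 to 3 correlated at 0.416 to 0.572 over all 8 libraries, where knockout-labelled 1 was closer to control 2 (0.511) than to control 1, and at −0.255 to −0.0234 within numbers 1 to 3. The deviations from a group's own mean cancel over its libraries. Positive values for like numbers therefore force lower ones for unlike numbers, which are no separate support for the pairing. Since each like-numbered value exceeded 0.1, the number was treated as pairing, which rests on the values and on no label. Libraries within a group differed beyond sampling noise (chi-square per degree of freedom of 8.56 or more), so each counted once. P-values measure the spread between libraries, which may be partly technical. Members and lists were chosen with earlier results of these data known. Genes named are the 10 members, Sphk2, up to 4 genes per list by smallest p, the 3 nearest profiles of each member, and markers. Cxcr4, Kit, Tek, Pirb, Pdgfrb, Prrx1, Itga2b, Gata2, Cd34 and Pf4 were added after their values were seen.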

Additional observations from a re-analysis of the deposited data

How the results depend on the processing

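Over all genes, the 0 higher and 0 lower by genotype alone became 127 and 49 with DESeq2, 168 and 151 with the replicate block, 1005 and 812 in numbers 1 to 3, and 1593 and 1539 there with the replicate block. Leaving out 1 library gave 0 to 25 higher and 0 to 13 lower, the most without control 4, and 17 and 7 without knockout-labelled 4. In numbers 1 to 3 with the block, leaving out number 1, 2 or 3 gave 1524, 1337 and 556 higher and 1557, 1336 and 652 lower, on a single residual degree of freedom. None of the factors passed in 8 libraries with RLE scaling, DESeq2, limma-voom, no filter or the block, and the block changed no factor's call there. In numbers 1 to 3 with the block 3 fell, Foxc1 (−0.30), Ebf1 (−0.50) and Angptl2 (−0.74), where 11.9% of all genes fell and 12.3% rose. With a number left out there 2 to 5 fell and 0 to 1 rose, beside the counts over all genes just given. By contrast 0 passed in every fit of 7 libraries or of the 8-library block with a number left out. In numbers 1 to 3 with the block, leaving out number 1, 2 or 3 gave Ebf1 −0.47, −0.42 and −0.60 and Angptl2 −0.82, −0.60 and −0.79, each past the threshold. Foxc1 (−0.29), Ebf3 (−0.56) and Lepr (−1.09) passed without number 1, and Kitl (1.12) without number 2.

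Signs turned for 5 factors. Cxcl12 was 0.035 with limma-voom, 0.025 with the block, 0.17 with the block without number 2, and 0.053 in numbers 1 to 3 with it, or 0.29 and 0.028 there without number 2 or 3, and −0.39 to 0.46 by library left out. Angpt1 was 0.13 with limma-voom, 0.018 with the block, 0.35 and 0.020 with the block without number 2 or 3, 0.28 in numbers 1 to 3 with it without number 2, and −0.44 to 0.38 by library left out. Lepr was −0.075 in numbers 1 to 3, −0.26 there with the block, and −0.46 to 1.50 by library left out. By library left out, Foxc1 ran from −0.64 to 0.10, positive without control 2 or knockout-labelled 4, and Ebf3 from −0.84 to 0.062, positive without control 2. Over all fits that leave out libraries Ebf1 ran from −0.83 to −0.026, Angptl2 from −0.98 to −0.24, Kitl from 0.32 to 1.12, Il7 from 0.27 to 0.52 and Vcam1 from 0.093 to 0.45. The cause was not tested.

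Of 11 tested receptors and partners, 1 rose with the block, where 1.31% of all genes rose. In numbers 1 to 3, with or without it, 1 rose and 2 fell. There 12.3% of all genes rose and 11.9% fell with it, and 7.78% and 6.29% without it. With libraries left out 0 to 3 rose and 0 to 3 fell. Among other stromal factors 1 fell with DESeq2, and 1 rose and 3 fell with the block, where 1.31% and 1.18% of all genes did. Of 28 tested in numbers 1 to 3, 1 rose and 6 fell, where 7.78% and 6.29% of all genes did. With the block there 2 rose and 9 fell, where 12.3% and 11.9% of all genes did. With libraries left out 0 to 3 rose and 0 to 11 fell, beside the counts over all genes given above. The fits with a number left out were chosen after seeing the data. Depth limits Kitl, Angpt1 and Ebf3 in number 4, with 6 to 16 reads.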

Other observations

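Foxc2, which with Foxc1 forms a small forkhead subfamily, had 10.3, 16.0, 15.8 and 5.46 CPM in knockout-labelled libraries, against 14.1, 17.9, 19.8 and 2.87 CPM in controls. Like Foxc1, it was lower in pairs 1 to 3 and higher in pair 4, and it did not pass the threshold. Ebf2 reached at most 2.50 CPM in knockout-labelled libraries and 2.25 CPM in controls. Ebf4 had 3, 6, 8 and 1 reads in knockout-labelled libraries, against 16, 22, 23 and 3 in controls, and was too low to test with 8 libraries. In numbers 1 to 3 it passed as lower with and without the block, where 11.9% and 6.29% of genes did. These genes were chosen after their values were seen.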
